A study of Homo sapiens with 4 samples.

Results

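The HOX cluster genes were taken as all rows of the count tables whose symbol is HOX, a cluster letter from A to D and a number. This gave 39 of the 60623 genes, with 11 in HOXA, 10 in HOXB, 9 in HOXC and 9 in HOXD. The cells were BICR10, an established human line of head and neck cancer that received a lentiviral short hairpin that was either a control (shControl, 2 libraries) or directed against YEATS2 (shYEATS2, 2 libraries), a histone reader that binds acylated lysines. Cells of both groups were selected with puromycin, and the only labelled difference between them is the hairpin. The study used a pair of YEATS2 hairpins, and the hairpin behind a given shYEATS2 library is not labelled. The study calls its replicates biological in general terms, and neither the labels nor the methods say how the 2 libraries of each group were obtained, so the p-values measure the spread between these libraries, which may be technical in part.

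HOX genes encode homeodomain transcription factors that give cells their position along the body axis. They lie in clusters, and the order of the genes in a cluster follows the order of their expression from head to tail, so that genes of the same paralog group sit at matching places in each cluster. Their proteins bind DNA together with PBX and MEIS homeodomain partners, and the clusters are kept silent by Polycomb complexes and active by the MLL group of histone methyltransferases. The jaws and much of the mouth form from neural crest cells that do not express HOX genes, and expression of these genes has often been described in head and neck carcinomas. Paralog groups 1 to 3 are called anterior here, groups 4 to 8 central and groups 9 to 13 posterior.

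On GRCh38 the HOXA cluster spans chr7:27092993-27200091, the HOXB cluster chr17:48528526-48728750, the HOXC cluster chr12:53938831-54056030 and the HOXD cluster chr2:176092721-176190907, each from the first to the last HOX gene. HOXA and HOXB genes are on the minus strand, and HOXC and HOXD genes on the plus strand. To show the sequence context of genes that the results below turn on, the 250 bases before the start of 5 of them are printed 5′ to 3′ on the strand of the gene, from RefSeq on GRCh38.p14. HOXA6, HOXA13 and HOXD8 were lower in shYEATS2, HOXD13 is the posterior paralog of HOXA13 whose counts were 0 in both shYEATS2 libraries, and HOXA11 was higher. Capitals mark a GC box (GGGCGG, or CCGCCC on the other strand), a CCAAT box (CCAAT or ATTGG) or a TATA box (TATAAA or TTTATA), and marked motifs can touch or overlap. The windows are chr7:27147775-27148024 for HOXA6, chr7:27200092-27200341 for HOXA13, chr2:176129455-176129704 for HOXD8, chr2:176092471-176092720 for HOXD13 and chr7:27185233-27185482 for HOXA11.
HOXA6: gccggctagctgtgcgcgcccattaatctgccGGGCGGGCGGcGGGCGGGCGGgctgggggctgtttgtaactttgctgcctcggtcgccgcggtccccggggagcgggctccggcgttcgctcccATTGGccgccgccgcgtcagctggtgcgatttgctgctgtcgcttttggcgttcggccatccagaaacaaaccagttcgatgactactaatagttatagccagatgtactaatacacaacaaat
HOXA13: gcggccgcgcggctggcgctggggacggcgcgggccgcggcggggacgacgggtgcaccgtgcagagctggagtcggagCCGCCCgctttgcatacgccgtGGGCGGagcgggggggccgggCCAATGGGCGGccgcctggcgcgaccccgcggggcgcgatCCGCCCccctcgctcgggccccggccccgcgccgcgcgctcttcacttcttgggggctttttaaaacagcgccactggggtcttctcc
HOXD8: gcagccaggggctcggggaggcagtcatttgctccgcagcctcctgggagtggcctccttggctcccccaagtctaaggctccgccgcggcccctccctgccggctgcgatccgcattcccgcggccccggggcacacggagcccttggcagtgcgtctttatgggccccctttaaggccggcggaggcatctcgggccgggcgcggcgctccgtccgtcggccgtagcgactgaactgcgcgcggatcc
HOXD13: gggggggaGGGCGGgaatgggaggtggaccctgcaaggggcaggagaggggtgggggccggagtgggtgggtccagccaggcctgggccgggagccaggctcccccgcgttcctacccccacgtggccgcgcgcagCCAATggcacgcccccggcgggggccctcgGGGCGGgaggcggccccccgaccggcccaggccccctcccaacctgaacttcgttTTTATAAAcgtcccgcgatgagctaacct
HOXA11: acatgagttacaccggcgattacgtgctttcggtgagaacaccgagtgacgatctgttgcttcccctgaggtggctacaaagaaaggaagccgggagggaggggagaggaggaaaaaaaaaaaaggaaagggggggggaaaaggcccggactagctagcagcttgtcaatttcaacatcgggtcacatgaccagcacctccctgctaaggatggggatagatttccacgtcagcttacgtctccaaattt

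The HOXA13 window holds 40 CG dinucleotides and 4 GC boxes, the HOXA6 window 27 and 4, and the HOXD13 window 21 and 2. The HOXD8 window has 28 CG dinucleotides and the HOXA11 window 11, and neither contains any of the motifs searched. The HOXA11 window lies inside the gene of the antisense RNA HOXA11-AS. RefSeq start windows were found for 20 of the 39 genes, with 27 windows in all since some genes have several starts, and HOXC4 and HOXC5 share the same window. HOXA5, HOXB2 to HOXB9, HOXB13, HOXC6, HOXC8 to HOXC13 and HOXD9 were among those with no entry. Among the 27 HOX windows, 18 (66.7%) held a CCAAT box in either direction, against 32% of all 35097 windows of the same length. A GC box was present in 13 (48.1%), against 42.6% of all windows, and a TATA box in 5 (18.5%), against 10.7%. The median number of CG dinucleotides was 19 in HOX windows and 11 in all windows. These are matches of letters and not measured binding sites.

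The totals of counts on genes were 47297970 and 39824898 in shControl and 24072396 and 11334133 in shYEATS2, so that the lower depth of shYEATS2 cannot be told apart from the condition. YEATS2 itself was at 66.1 and 66.7 CPM (counts scaled to a common TMM-normalized total) in shControl and at 29.2 and 29.1 CPM in shYEATS2, which is 43.9% of control (log2 fold change -1.19, SE 0.08, edgeR quasi-likelihood test with Benjamini-Hochberg adjusted p = 3.6e-21). The epithelial label was checked against 18 squamous epithelial genes. Of these 14 were tested, 5 lower and 4 higher in shYEATS2, beside 23.6% lower and 22.6% higher among all tested genes. The summed level of the 18 genes was 392 and 407 CPM in shControl and 364 and 343 CPM in shYEATS2. SFN (126 to 136 CPM), PERP (103 to 128 CPM) and LAMB3 (50.8 to 57.2 CPM) were present in all libraries. The keratin KRT6A was at 55.0 and 58.2 CPM in shControl and at 1.38 and 2.21 CPM in shYEATS2. The basal keratin KRT5 fell from 16.4 and 15 CPM to 1.03 and 1.36 CPM. CLDN1 rose from 0.639 and 0.715 CPM to 12.4 and 12.7 CPM. Other members were low in all libraries, among them KRT14 (0.170 to 1.23 CPM) and TP63 (at most 3 counts). CDH1, which encodes E-cadherin, was low, at 0.353 and 0.318 CPM in shControl and 2.84 and 2.12 CPM in shYEATS2. EPCAM was low as well, at 0.474 to 1.23 CPM, and GRHL2 was at 0 counts in all libraries. Collagen and other fibroblast markers were abundant, with COL1A1 at 2845 and 2747 CPM in shControl, and the summed level of the 16 genes of that list was 11238 to 11280 CPM in shControl and 5386 to 5723 CPM in shYEATS2. Of the 15 tested genes of the list, 12 were lower and 2 higher in shYEATS2, beside 23.6% lower and 22.6% higher among all tested genes. The part of this change in the HOX results was not tested, and in bulk RNA fewer cells of a type cannot be told apart from less RNA per cell. Of the 10 leukocyte markers 2 had enough counts to test, and both were lower in shYEATS2, beside 23.6% of all tested genes. CD14 had 79 and 58 counts in shControl and 14 and 14 in shYEATS2. CSF1R had 37 and 33 counts in shControl and 5 and 1 in shYEATS2. CD3E, CD68 and NKG7 were at 0.

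HOX genes moved in both directions in shYEATS2, with at least 1 called gene in every cluster. Of the 39 genes, 20 passed the filter on low counts, among which 6 were lower, 4 were higher and 10 did not pass the threshold of an adjusted p under 0.05. HOXA5, HOXA6, HOXA10, HOXA13, HOXB6 and HOXD8 fell, and HOXA3, HOXA11, HOXB9 and HOXC11 rose. The share called, 50% of the tested HOX genes, stood beside 46.2% of all 17058 tested genes, of which 23.6% were lower and 22.6% higher. Among the 7536 genes in the range of mean levels of the tested HOX genes (0.364 to 13.3 CPM), 15.2% were lower and 20.1% higher, 35.3% in all. With library totals alone in place of TMM, 2567 of all tested genes were lower and 5441 higher, and 4 HOX genes were lower and 5 higher. The HOX median log2 fold change was 0.08 and that of all tested genes -0.01. The summed level of all 39 genes was 91.9 and 88.8 CPM in shControl and 90.7 and 91.1 CPM in shYEATS2, so the groups overlapped.

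DESeq2 on the same tested genes called 3 HOX genes lower (HOXA10, HOXA13 and HOXD8) and 3 higher (HOXA3, HOXB9 and HOXC11), beside 17.3% lower and 16.5% higher among all tested genes. With a change of at least 2-fold required as well, HOXA6 and HOXA13 were lower and HOXB9 and HOXC11 higher, beside 3.70% and 5.99% of all tested genes. In 8 of the 20 genes both knockdown values were smaller than both control values, and in 7 both were larger, beside 36.3% and 35.3% of all tested genes. For a single gene taken alone, 2 libraries against 2 allow an exact permutation p of no less than 0.333. The plot of levels shows the HOX genes in each library.

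**Figure D1:**
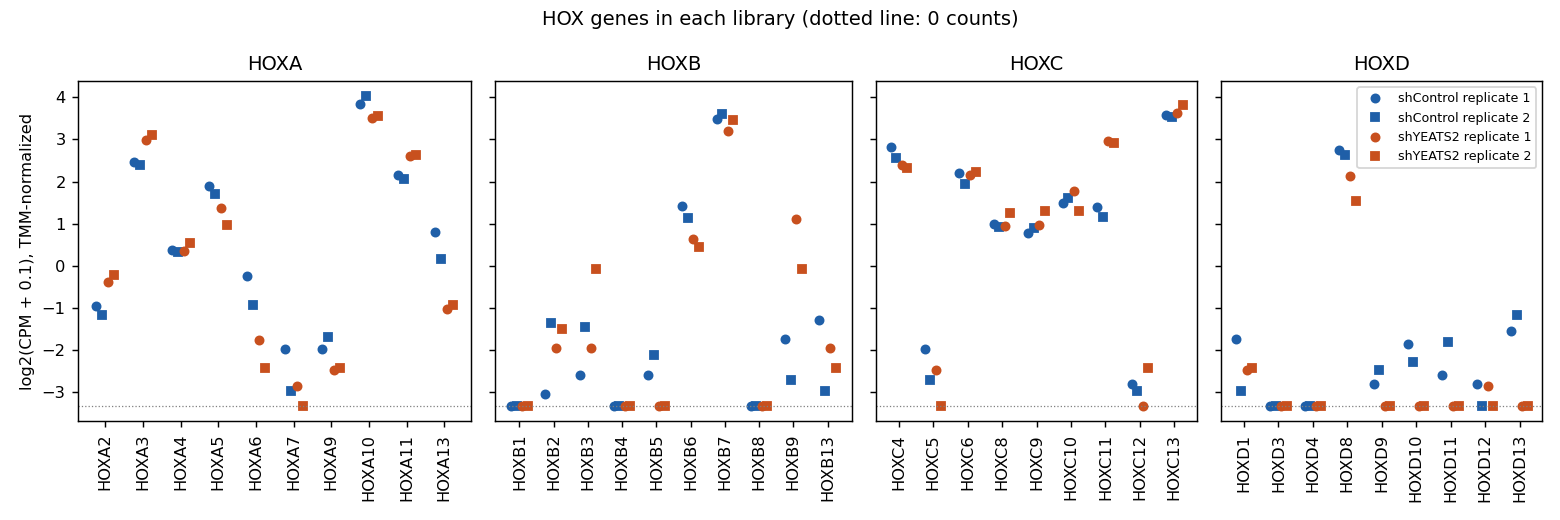
Level of HOX genes as log2(CPM + 0.1) in the 4 libraries, by cluster, with shControl in blue and shYEATS2 in orange and the dotted line at 0 counts. HOXC11 and HOXB9 stand higher in both shYEATS2 libraries, HOXA6, HOXA13 and HOXD8 stand lower, and most HOXB and HOXD genes lie near the line.

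Per length, the order of HOX levels was led by the same 3 genes in both groups. In shControl, HOXB7 had 7.62 ± 0.455 CPM per kb of exon (SD, n = 2), HOXC13, a regulator of hair keratins, 4.93 ± 0.0942 and HOXA10, a gene of uterine and lumbar patterning, 4.11 ± 0.341. HOXD8 (2.42 ± 0.161) and HOXC4 (2.30 ± 0.300 CPM per kb) stood below these and did not differ from each other beyond their spread. In shYEATS2, HOXB7 (6.55 ± 0.847) and HOXC13 (5.59 ± 0.543) did not differ beyond their spread, and HOXA10 had 3.09 ± 0.0639 CPM per kb. HOXC11 stood at place 15 of the HOX genes in shControl and at place 5 in shYEATS2, HOXB9 at places 29 and 16, and HOXD8 at places 4 and 9. No HOX gene exceeded 16.1 CPM in any library.

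The HOXA cluster had genes called in both directions. HOXA3, which patterns the third pharyngeal arch and its thymus and parathyroid, was at 5.40 and 5.16 CPM in shControl and at 7.78 and 8.48 CPM in shYEATS2. The groups did not overlap, and its log2 fold change was 0.61 (SE 0.15, edgeR adjusted p = 5.3e-04). Of its exon bases 9.29% overlap annotated genes on the same strand and 17.3% HOXA-AS2 and HOXA-AS3 on the other. HOXA11, a gene of the forearm and the uterus, was at 4.34 and 4.10 CPM in shControl and at 5.96 and 6.11 CPM in shYEATS2. Both shYEATS2 libraries were above both controls, with a log2 fold change of 0.51 (SE 0.17, edgeR adjusted p = 0.010). HOXA11 was not called with counts thinned to the smallest total (log2 fold change 0.29, edgeR adjusted p = 0.289), by DESeq2 (adjusted p = 0.085), without the shControl 2 library (adjusted p = 0.069) or without the shYEATS2 1 library (adjusted p = 0.061). Of its exon bases 27.2% overlap HOXA11-AS on the other strand, and the strand setting of the counting is not given in the sources used here.

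The central and posterior HOXA genes HOXA5, HOXA6, HOXA10 and HOXA13 fell. HOXA13, which patterns the hand plate and the genital tubercle, was at 1.65 and 1.01 CPM in shControl and at 0.395 and 0.424 CPM in shYEATS2. Although the controls differed from each other, both were above both shYEATS2 libraries, and the log2 fold change was -1.72 (SE 0.44, edgeR adjusted p = 7.0e-04). Without the shControl 1 library it was -1.31 and not called (adjusted p = 0.076). HOXA10 was the most abundant gene of the cluster per length, at 14.3 and 16.1 CPM in shControl and 11.3 and 11.6 CPM in shYEATS2. Its groups did not overlap, with a log2 fold change of -0.41 (SE 0.11, edgeR adjusted p = 0.002), and without the shControl 2 library the change was -0.33 and not called (adjusted p = 0.082). Exons of HOXA10 overlap a readthrough transcript on the same strand (9.93% of its bases) and HOXA10-AS on the other (16.4%).

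HOXA6, a gene of thoracic identity, rested on 34 and 16 counts in shControl and 5 and 1 counts in shYEATS2, or 0.750 and 0.423 CPM against 0.197 and 0.0848 CPM. The groups did not overlap, and the log2 fold change was -1.87 (SE 0.66, edgeR adjusted p = 0.015). It passed the filter on low counts only through its shControl libraries, DESeq2 did not call it (adjusted p = 0.136), without the shYEATS2 2 library it was -1.58 and not called (adjusted p = 0.083), and 39.3% of its exon bases overlap HOXA-AS3 on the other strand. HOXA5, which acts in lung and neck development, was at 3.62 and 3.18 CPM in shControl and 2.49 and 1.87 CPM in shYEATS2. All shYEATS2 values were below those of shControl (log2 fold change -0.59, SE 0.23, edgeR adjusted p = 0.027). This call was lost with library totals alone (adjusted p = 0.098), with DESeq2 (0.167), with counts thinned to the smallest total (0.056), without shControl 1 (0.166) and without shYEATS2 2 (0.147).

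HOXA2 and HOXA4 did not pass. HOXA2, a selector gene of the second pharyngeal arch, was at 0.419 and 0.344 CPM and at 0.671 and 0.764 CPM, without overlap between the groups (interval -0.11 to 1.86, edgeR adjusted p = 0.150). HOXA4 was at 1.19 and 1.16 CPM and at 1.18 and 1.36 CPM, with an interval from -0.58 to 0.74. Of its exon bases 31.3% overlap an annotated gene on the same strand and 16.5% HOXA-AS2 and HOXA-AS3 on the other. HOXA7 and HOXA9 had at most 8 counts in any library and were not tested.

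In HOXB, HOXB9 rose from near absence. HOXB9, which patterns the ribs and is expressed in mammary gland, had 9 and 2 counts in shControl and 52 and 10 counts in shYEATS2, or 0.198, 0.0529, 2.05 and 0.848 CPM. Both shYEATS2 libraries were above both controls but differed from each other, and the log2 fold change was 3.54 (SE 0.53, edgeR adjusted p = 8.0e-08). The call held in all 9 other settings in which the gene was tested and with each library left out, where the change ranged from 2.65 to 4.77, the higher value being without shControl 1 and the lower without shYEATS2 1. HOXB9 passed the filter only through the shYEATS2 libraries, and its fold change rests on few counts in shControl. None of its exon bases overlap an exon of another annotated gene. The whole gene lies within the span of HOXB7 on the same strand.

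HOXB7, the HOX gene with the highest level per length, was at 11.1 and 12.1 CPM in shControl and 9.04 and 10.9 CPM in shYEATS2. The values of shYEATS2 were below those of shControl, and the change did not pass the test (log2 fold change -0.25, SE 0.12, edgeR adjusted p = 0.099), while without the shYEATS2 2 library it was -0.36 with an adjusted p of 0.020. HOXB6, its neighbour in the cluster, was at 2.58 and 2.09 CPM in shControl and 1.46 and 1.27 CPM in shYEATS2. Its groups did not overlap (log2 fold change -0.75, SE 0.28, edgeR adjusted p = 0.023). The HOXB6 call was the least stable of the 10, being lost with library totals (adjusted p = 0.067), DESeq2 (0.158), thinned counts (0.178), and without shControl 1 (0.179), shYEATS2 1 (0.068) or shYEATS2 2 (0.075). Of its exon bases 16.6% overlap HOXB3 on the same strand and 16.3% HOXB-AS3 on the other. The other 7 HOXB genes had at most 14 counts in any library, and HOXB1, HOXB4 and HOXB8 were at 0 in all 4 libraries, which allows a mean level of up to 0.0249 CPM (3 counts of the summed total, for counting error only).

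In HOXC, HOXC11 rose and the other 6 tested genes did not pass the test. HOXC11, a gene of hind limb and lower spine patterning, was at 2.51 and 2.12 CPM in shControl and at 7.66 and 7.38 CPM in shYEATS2. The groups were far apart compared with the difference between replicates, and the log2 fold change was 1.70 (SE 0.18, 95% interval 1.34 to 2.06, edgeR adjusted p = 3.6e-12). The call held in all 10 other settings and with each library left out, where the change ranged from 1.58 to 1.83. Its exons overlap no exon of another annotated gene. Part of its span lies within the gene of the long noncoding RNA HOTAIR on the other strand.

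The other tested posterior genes of HOXC were not called. HOXC10, a gene of lumbar identity, was at 2.69 and 2.94 CPM in shControl and 3.32 and 2.38 CPM in shYEATS2, with overlapping groups (interval -0.36 to 0.51). HOXC13 was at 11.8 and 11.5 CPM and at 12.3 and 14.1 CPM, without overlap but not called (log2 fold change 0.16, interval -0.07 to 0.39, edgeR adjusted p = 0.262), and with library totals alone it was called at 0.30 (adjusted p = 0.034). HOXC9, which acts in thoracic motor neurons, was at 1.61 and 1.75 CPM and at 1.86 and 2.38 CPM (interval -0.26 to 0.84). Of its exon bases 4.38% overlap HOXC6 on the same strand and 9.78% HOXC-AS2 on the other.

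The central HOXC genes were not called. HOXC8, a gene of brachial motor neurons, was at 1.90 and 1.80 CPM in shControl and 1.82 and 2.29 CPM in shYEATS2 (interval -0.43 to 0.65). HOXC6 was at 4.52 and 3.73 CPM and at 4.34 and 4.58 CPM (interval -0.26 to 0.46). HOXC4 was at 6.94 and 5.77 CPM in shControl and 5.13 and 4.92 CPM in shYEATS2, without overlap (log2 fold change -0.34, edgeR adjusted p = 0.082). Exons of HOXC4 and HOXC6 overlap each other and a further gene on the same strand, and those of HOXC6 also overlap HOXC9 (17.5% and 16.1% of their bases in all). HOXC5 and HOXC12 had at most 7 counts in any library. Of the exon bases of HOXC5 67.3% overlap other annotated genes on the same strand, and the effect of this on its counts was not tested.

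In HOXD, HOXD8 was the single gene with enough counts to test, and it fell. HOXD8, a central gene of trunk patterning, was at 6.66 and 6.06 CPM in shControl and at 4.26 and 2.80 CPM in shYEATS2. The groups did not overlap, and the log2 fold change was -0.77 (SE 0.18, edgeR adjusted p = 1.8e-04). The call held in all 10 other settings and with each library left out (-1.20 to -0.58), the extremes being reached without the shYEATS2 1 and the shYEATS2 2 library. Of its exon bases 24.4% overlap HOXD-AS2 on the other strand.

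The posterior HOXD genes HOXD9 to HOXD13, which pattern the limbs and digits, were at trace level in shControl and almost without counts in shYEATS2. Together they had 26 and 27 counts in shControl and 1 and 0 counts in shYEATS2, where 23.6 counts would have been present at the control level. The ratio of the levels was 0.0424 (exact 95% interval 0.00105 to 0.247, for counting error only). HOXD13 had 11 and 13 counts in shControl and 0 in both shYEATS2 libraries, which makes it at least 3.56-fold lower with a floor of 3 counts over the group. HOXD13 thus held 24 of the 53 shControl counts of the 5 genes. For HOXD10 and HOXD11, which share 18.2% and 21.4% of their exon bases, the bounds were 1.78-fold and 1.48-fold. For HOXD9 the bound was 0.742, so no fall can be read for it. HOXD12 had 2 and 0 counts in shControl and 1 and 0 in shYEATS2, so the summed fall is not shown for each gene. None of these genes passed the filter, and in the fit without a filter HOXD13 had an edgeR adjusted p of 0.006, HOXD10 of 0.117, HOXD11 of 0.170 and HOXD9 of 0.471. HOXD3 and HOXD4 were at 0 in all libraries, and HOXD1 had at most 9 counts.

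**Figure D2:**
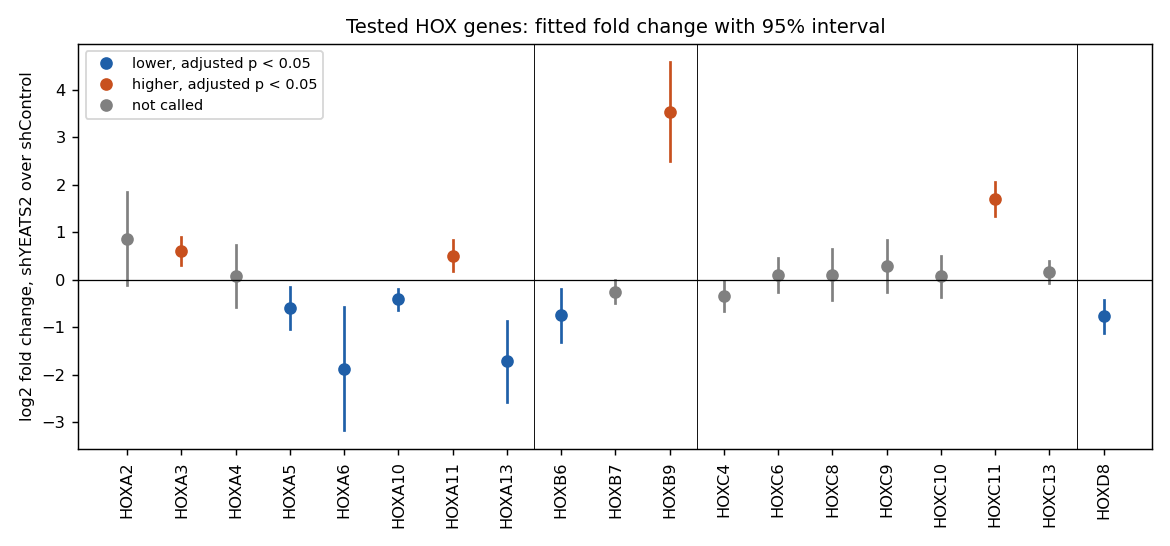
Fitted log2 fold change of tested HOX genes, shYEATS2 over shControl, with the 95% interval (1.96 SE), ordered by cluster and paralog group and coloured by call. HOXB9 (3.54) and HOXC11 (1.70) lie highest, and HOXA6 (-1.87) and HOXA13 (-1.72) lie lowest.

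Between clusters, the direction of the summed levels differed. The HOXD sum was 7.43 and 6.80 CPM in shControl and 4.38 and 2.88 CPM in shYEATS2, 51.1% of control. The HOXC sum was 32.1 and 29.6 CPM in shControl and 36.5 and 38.1 CPM in shYEATS2, 121% of control, and HOXC11 alone made up 2.32 ± 0.280 CPM of the control sum and 7.52 ± 0.195 CPM of the shYEATS2 sum (SD, n = 2). HOXD8 alone made up 6.36 ± 0.423 CPM of the HOXD mean of 7.12 CPM in shControl, and 3.53 ± 1.03 of 3.63 CPM in shYEATS2. The direction of both sums thus rests mostly on a single gene and is not read as a trait of the whole cluster. In both of these clusters the groups did not overlap, and with library totals alone in place of TMM the sums were 56.1% and 132% of control.

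The HOXA sum was 38.0 and 37.4 CPM in shControl and 36.9 and 36.0 CPM in shYEATS2, and the HOXB sum was 14.3 and 14.9 CPM and 13 and 14.2 CPM. Neither direction can be read from these sums, since HOXA was at 96.5% and HOXB at 93.0% of control with TMM and at 106% and 102% with library totals alone. Under that scaling the median over all tested genes was 0.13 in place of -0.01. By calls, HOXA had 4 lower and 2 higher of 9 tested genes (median log2 fold change 0.07), HOXB 1 lower and 1 higher of 3 (-0.25), HOXC 0 lower and 1 higher of 7 (0.11), with 1 further gene, HOXC4, lower at an unadjusted edgeR p under 0.05 and none by DESeq2, and HOXD 1 lower of 1 (-0.77), beside 23.6% lower and 22.6% higher among all tested genes. The cluster medians were not tested, and in HOXB and HOXD they rest on 3 genes and 1 gene. The plot of summed levels gives these values by library.

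**Figure D3:**
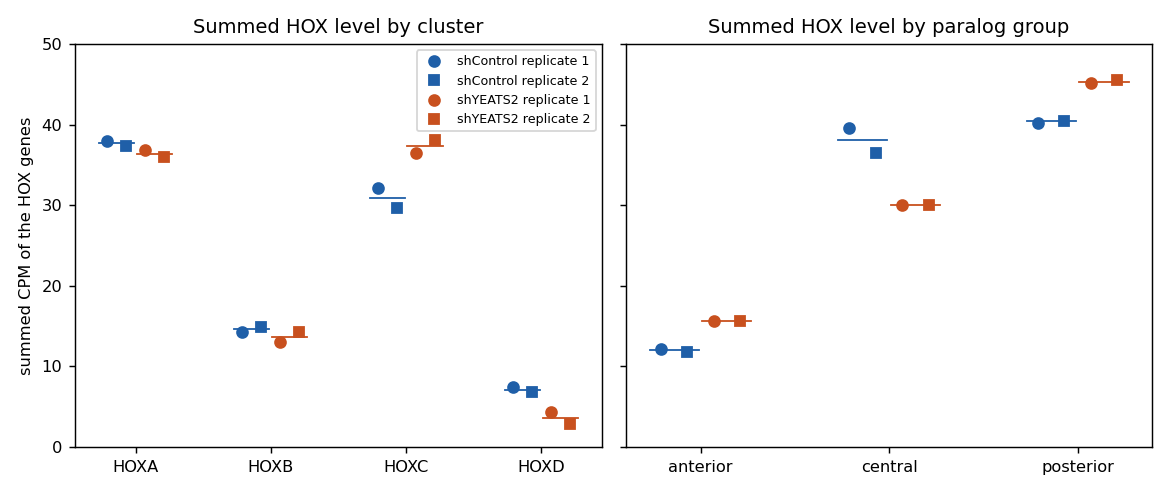
Summed CPM of the HOX genes in each library by cluster (left) and by anterior, central and posterior paralog groups (right), with shControl in blue, shYEATS2 in orange, points for libraries and lines for the mean of 2. The HOXD and central sums are lower in both shYEATS2 libraries, and the HOXC, anterior and posterior sums are higher.

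From anterior to posterior, calls in the lower direction fell in the central and posterior groups and none in the anterior groups. Of the 8 anterior genes 3 were tested, and 1 was higher (HOXA3). Of the 15 central genes 9 were tested, 4 were lower (HOXA5, HOXA6, HOXB6 and HOXD8) and 0 were higher by edgeR, also at an unadjusted p under 0.05, or by DESeq2, which called 1 of them lower (HOXD8). Of the 16 posterior genes 8 were tested, 2 were lower (HOXA10 and HOXA13) and 3 were higher (HOXA11, HOXB9 and HOXC11). Among all tested genes 23.6% were lower and 22.6% higher, so with so few members nothing particular to a region is read from these counts. The median log2 fold changes were 0.61, -0.34 and 0.23. The anterior median was 0.29 with thinned counts and 0.08 with paralog groups 1 to 4 taken as anterior, the central median stayed negative (-0.72 without a filter), and the posterior median was -0.37 without a filter and 0.00 without the shYEATS2 1 library.

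By summed level, the anterior genes were at 12.1 and 11.8 CPM in shControl and 15.6 CPM in both shYEATS2 libraries, 131% of control. The central sum was 39.6 and 36.5 CPM in shControl and 30.0 CPM in both shYEATS2 libraries, 78.9% of control. The posterior sum was 40.2 and 40.5 CPM in shControl and 45.1 and 45.5 CPM in shYEATS2, 112% of control. HOXC11 made up 2.32 CPM of the control mean and 7.52 CPM of the shYEATS2 mean, and without it, a choice made after seeing the data, the posterior sum was 37.7 and 38.4 CPM against 37.4 and 38.1 CPM with overlapping groups, 99.3% of control (109% with library totals). With all members included, in none of the 3 did the groups overlap, and with library totals alone the sums were 143%, 86.5% and 123% of control, in the same directions. The difference between anterior and posterior genes was not tested, since the genes are not replicates of a condition.

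Within HOXA, where all 3 regions had tested genes, the anterior genes were at 129% of control, the central genes at 68.7% and the posterior genes at 85.8%. The anterior rise within HOXA came mostly from HOXA3. The posterior genes of HOXC were at 139% of control, and those of HOXB, in which HOXB9 held most of the counts of shYEATS2, at 536%. The central HOXC genes were at 93.1% of control with TMM and at 102% with library totals, so no direction is given for them. Between paralogs, group 11 had both tested genes higher (HOXA11 and HOXC11), and its sum was 6.66 ± 0.367 CPM in the control libraries and 13.6 ± 0.0900 CPM in the knockdown (SD, n = 2). The HOXA11 call was lost with DESeq2 and with thinned counts. HOXD11, the other gene of the group, was not tested and had 3 and 7 counts in shControl and 0 in both shYEATS2 libraries. Of the 3 genes of group 6, all tested, HOXA6 and HOXB6 were lower and HOXC6 was not called. In group 13, HOXA13 was lower while HOXC13, which had most of the counts of the group, was not called. In group 10, HOXA10 was lower and HOXC10 was not called. HOXD13 and HOXD10, which were not tested, had counts in shControl only. Among all tested genes 46.2% were called, so nothing particular to a paralog group is read from these counts.

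**Figure D4:**
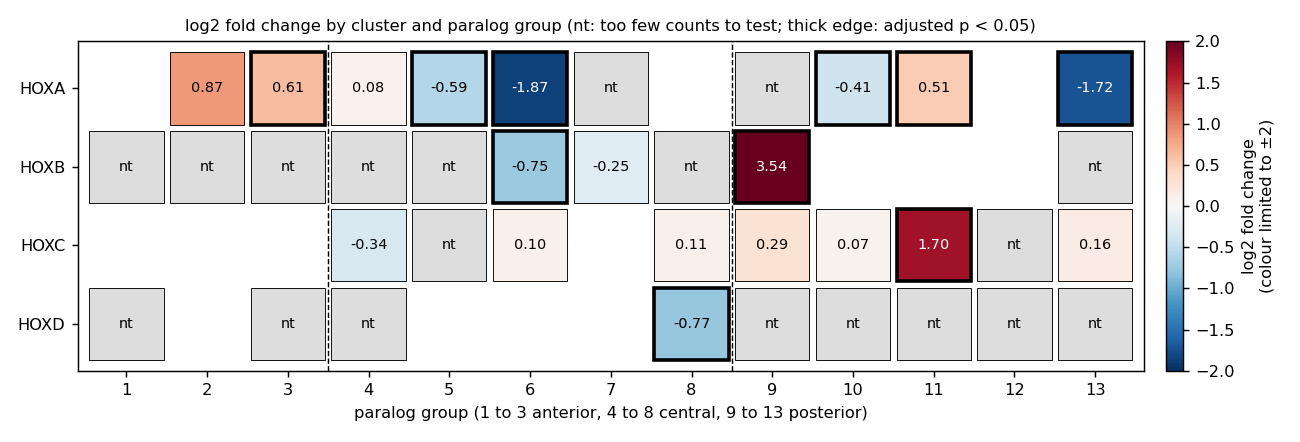
Log2 fold change of HOX genes, shYEATS2 over shControl, with clusters in rows and paralog groups in columns; cells marked nt had too few counts to test, thick edges mark an adjusted p under 0.05 and dashed lines part the anterior, central and posterior groups. Blue cells lie in the central groups and at HOXA10 and HOXA13, and the darkest red cells are HOXB9 and HOXC11.

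Noncoding RNA genes inside the clusters also changed in both directions. The spans from the first to the last HOX gene of each cluster held or touched 61 other annotated genes, of which 36 had 0 counts in all libraries and 9 were tested, 3 lower and 2 higher. Among all tested genes 23.6% were lower and 22.6% higher, so nothing particular to these genes is read from the counts. In the HOXD cluster, HAGLR, a long noncoding RNA from the anterior end, was at 3.0 and 3.23 CPM in shControl and 1.89 and 1.19 CPM in shYEATS2. It fell, without overlap between the groups (log2 fold change -0.92, SE 0.25, edgeR adjusted p = 0.002). HAGLROS, on the other strand within it, was at 1.04 and 1.03 CPM and at 0.513 and 0.255 CPM (log2 fold change -1.28, edgeR adjusted p = 0.017), and this call was lost with DESeq2 (0.127) and without shControl 1 (0.073), shControl 2 (0.059) or shYEATS2 2 (0.093).

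In the HOXC cluster, HOXC13-AS, which lies antisense at the posterior end, was at 2.03 and 1.46 CPM in shControl and 3.39 and 3.99 CPM in shYEATS2. It was higher in both shYEATS2 libraries (log2 fold change 1.05, SE 0.24, edgeR adjusted p = 2.0e-04), whereas HOXC13 was not called, and 7.30% of the exon bases of HOXC13 overlap it. AC012531.1, a long noncoding RNA at chr12:54019910-54022589 on the plus strand, had 78 and 63 counts in shControl and 10 and 8 counts in shYEATS2, or 1.72, 1.67, 0.395 and 0.679 CPM. It fell, with a log2 fold change of -1.78 (SE 0.39, edgeR adjusted p = 1.0e-04). HOTAIR is a long noncoding RNA known for its association with Polycomb, from a gene that starts within the span of HOXC11 and extends towards HOXC12. It was at 4.28 and 4.45 CPM in shControl and at 5.29 and 6.28 CPM in shYEATS2. Its groups did not overlap, and it did not pass the test (log2 fold change 0.38, edgeR adjusted p = 0.062), while with library totals alone it was called (0.52, adjusted p = 0.013).

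In the HOXA cluster, HOXA11-AS was at 1.21 and 0.900 CPM in shControl and 1.89 and 2.38 CPM in shYEATS2. It rose as HOXA11 did (log2 fold change 0.97, SE 0.31, edgeR adjusted p = 0.007), and the call was lost with DESeq2 (0.063), without shControl 2 (0.071) and without shYEATS2 2 (0.055). HOTAIRM1, from the anterior end of the cluster, was at 2.16 and 1.56 CPM and at 1.22 and 1.36 CPM and was not called (log2 fold change -0.56, edgeR adjusted p = 0.134). HOXA-AS2 (0.06) and HOXA10-AS (-0.28) were not called. Of the microRNA genes of the clusters, MIR10A, MIR10B, MIR196A1, MIR196B and MIR615 were at 0 counts in all libraries and MIR196A2 had 1 count.

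**Figure D5:**
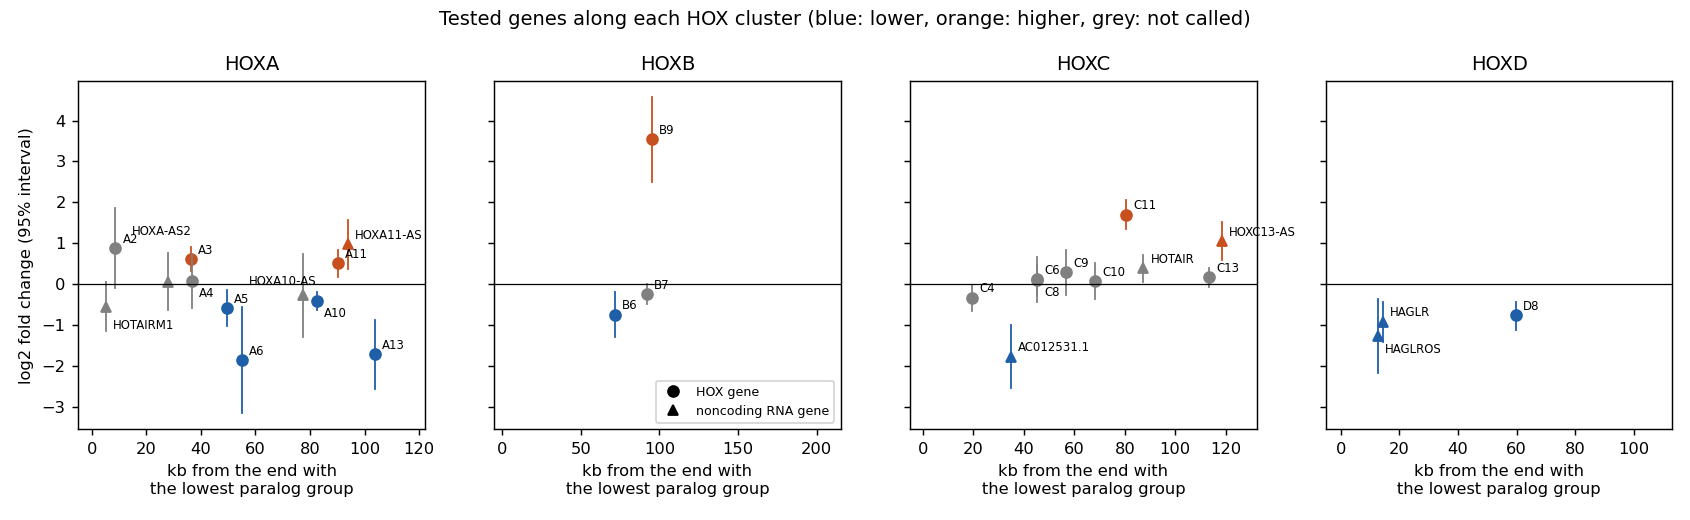
Fitted log2 fold change (95% interval) of tested HOX genes (circles) and noncoding RNA genes (triangles) against the distance of the middle of the gene from the end of the cluster with the lowest paralog group, in kb; blue genes were lower, orange genes higher and grey genes not called. In HOXA, lower, higher and uncalled genes lie next to each other. In HOXC, uncalled genes lie between the higher HOXC11 and HOXC13-AS and the lower noncoding gene AC012531.1. In HOXD the 3 tested genes were lower.

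Outside the clusters, within 500 kb of either end, lay 42 protein-coding genes, of which 31 were tested. Of these 5 were lower and 11 were higher, with a median log2 fold change of 0.13, beside 23.6% lower and 22.6% higher and a median of -0.01 among all tested genes. Flanking HOXD, LNPK was lower, at 88.3 and 90.2 CPM in shControl and 61.4 and 64.8 CPM in shYEATS2, and MTX2 on the other side was not called, at 46.5 and 45.2 CPM and at 39.7 and 45.0 CPM. The genes flanking HOXA, SKAP2 (log2 fold change -0.03) and HIBADH (0.13), were not called. Flanking HOXB, 5 of 12 tested genes were higher and 1 lower, and flanking HOXC, 6 of 15 were higher and 3 lower.

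Of the DNA-binding partners of HOX proteins, all 11 listed PBX, MEIS, PKNOX and TGIF genes were tested, 4 were lower and 2 higher (median log2 fold change 0.07), and this list and the following ones are read beside 23.6% lower and 22.6% higher among all tested genes, with nothing called particular to them. MEIS2, a partner that stabilizes HOX binding, was at 24.7 CPM in both shControl libraries and at 14.7 and 14.6 CPM in shYEATS2 (log2 fold change -0.75, edgeR adjusted p = 2.2e-09). MEIS1, its paralog, was at 7.56 and 7.52 CPM and at 4.62 and 5.43 CPM (-0.61, edgeR adjusted p = 7.6e-04). TGIF1, a related homeodomain repressor, was at 31.9 and 33.5 CPM and rose to 62.0 CPM in both shYEATS2 libraries (0.93, edgeR adjusted p = 7.4e-17).

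Of 32 Polycomb genes, 9 were lower and 7 higher (median -0.05), among them PCGF3 (-0.62) and PCGF5 (-0.54), subunits of variant PRC1 complexes, and RYBP (0.50), another such subunit. Of 21 genes of the MLL and elongation complexes, 3 were lower and 6 higher (median 0.07), among them HCFC1 (-0.38) and MEN1 (-0.31), both partners of MLL, and KDM6B (0.39), a demethylase of H3K27. MEN1 was not called with library totals (adjusted p = 0.077), and KDM6B was not called with thinned counts (0.059) or without shControl 1 (0.087) or shYEATS2 1 (0.183). Of 21 genes of retinoic acid metabolism and signalling and CDX factors, a pathway that induces HOX genes in the embryo, 13 were tested, 4 lower and 4 higher (median -0.08). DHRS3, which reduces retinaldehyde, rose from 3.95 and 4.98 to 12.8 and 11.2 CPM (1.45, edgeR adjusted p = 1.4e-13), while CRABP2, a retinoic acid carrier, fell from 14.6 and 13.3 to 5.13 and 5.52 CPM (-1.41, edgeR adjusted p = 4.8e-14) and RDH10, which makes retinaldehyde, fell by 0.61 on the log2 scale. Of 36 other homeobox and T-box genes of positional identity, 26 were tested, 8 lower and 5 higher (median -0.03), with DLX3 (-1.11) and PRRX1 (-0.61) lower and SIX4 (0.65) higher.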

How the data were processed

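The deposited values were raw counts of read pairs per Ensembl gene in 4 libraries. Per the methods and the labels, the authors used a stranded mRNA kit and 150 bp paired-end sequencing, with alignment by STAR to GRCh38 and counting by HTSeq. The STAR version, the strand setting and the annotation release are not given in the sources used here. Reads outside genes were 7.64 to 8.57% and ambiguous reads 4.31 to 4.61%, and both were left out of the totals.

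The members and lists were chosen with earlier results of these data known. All 60623 genes were filtered with filterByExpr (17058 kept), scaled with TMM (factors 0.95 to 1.05) and fitted with edgeR 4.0.16 (glmQLFit robust, glmQLFTest) in R 4.3.3, with Benjamini-Hochberg adjustment over all tested genes. The filter asks for a level worth about 10 counts at the median total in at least 2 libraries. Methods were tested on simulated data. CPM values are counts scaled by the TMM-normalized library total, ± is the SD of 2 libraries, and intervals are 1.96 SE. Positions, exon lengths and overlaps, counted from exon to exon, came from GENCODE release 44, in which all 39 genes were found. Replicates differed by more than counting noise (chi-square per degree of freedom 5.95 and 5.39 over genes with at least 50 counts), with a common coefficient of variation of 4.95%. Same-numbered libraries did not deviate together (correlation -0.0184), so no pairing was used. HOX genes whose mean was 1 CPM or more were given in every library, as were called genes below it, with 1 gene not reported on its own here, and of each list at most the 3 called genes with the largest change, at a mean of 5 CPM or more. Markers and flanking genes named for a check were chosen after their values were seen. The alternatives were DESeq2 1.42.0, limma-voom (limma 3.58.1), the likelihood ratio test, 3 other scalings, other filters, thinning to the smallest total of 11334133, a replicate block and each library left out.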

Additional observations from a re-analysis of the deposited data

How the results depend on the processing

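The 10 HOX calls kept their direction in all settings run. HOXA3, HOXB9, HOXC11 and HOXD8 were called in each setting in which they were tested and with each library left out. HOXB9 passed the main filter only through the shYEATS2 libraries. It was not tested where at least 10 counts were asked in every library, having 9 and 2 counts in shControl. The count of HOX genes called lower went from 6 to 3 with DESeq2, with thinned counts and at an adjusted p under 0.01, to 2 with a 2-fold change required, and ranged from 2 (without shControl 1) to 6 with single libraries left out. The count called higher went from 4 to 2 with the 2-fold requirement. Over all genes, library totals alone gave 2567 lower and 5441 higher calls in place of 4019 and 3857, and the 2-fold requirement 631 lower and 1022 higher. With the replicate block 6 HOX genes were lower and 4 higher, and of the 20 tested genes none changed its call. The correlation of -0.0184 over all tested genes gave no sign of pairing by replicate number. The labels do not say whether same-numbered libraries were prepared together, and the correlation cannot settle it.

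The medians over few genes moved more. With library totals they were 0.21 for HOXA, 0.24 for HOXC, 0.74 for anterior, -0.20 for central and 0.36 for posterior genes, beside 0.13 for all tested genes. Without a filter, which adds genes of few counts, they were -0.46 for HOXA, -3.98 for HOXD, 0.44 for anterior, -0.72 for central and -0.37 for posterior genes. With at least 10 counts in every library, HOXB was at -0.50 and anterior genes at 0.34. With thinned counts, HOXA was at -0.07, anterior genes at 0.29 and posterior genes at 0.09, and HOXA4 (-0.06) turned negative without being called. Paralog groups 1 to 4 as anterior gave 0.08, and groups 5 to 8 as central -0.59. With single libraries left out, and the filter applied anew, the medians ranged from -0.20 to 0.10 in HOXA, -0.16 to 1.19 in HOXB, 0.07 to 0.26 in HOXC, -3.71 to -0.71 in HOXD, 0.38 to 0.75 in anterior, -0.47 to -0.25 in central and 0.00 to 0.24 in posterior genes. Genes that were not called and changed sign ranged from -0.04 to 0.24 (HOXC6), -0.03 to 0.29 (HOXC8), -0.26 to 0.23 (HOXC10), -0.36 to 0.70 (HOXA-AS2) and -0.52 to 0.05 (HOXA10-AS). The cause was not tested. Depth limits the 19 untested genes: 3 counts correspond to 0.0661 CPM in shControl 1 and to 0.255 CPM in shYEATS2 2, and the spread of each group rests on 2 libraries.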
